A study of Homo sapiens with 12 samples.

Results

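The genes described here encode the pore-forming and auxiliary subunits of potassium, sodium and calcium channels, followed in SUM149PT, a line derived from an inflammatory, basal-like breast carcinoma. They were chosen by symbol alone. The symbols were those that start with KCN and carry a number, the SCN genes ending in A or B, the SCNN1 genes, and the CACNA, CACNB and CACNG genes, with hyphenated symbols left out. Of the 23228 genes counted, 141 fitted, 97 for potassium, 18 for sodium and 26 for calcium channels. The potassium group also held KCNQ1OT1 and KCNQ1DN, transcripts of the KCNQ1 locus that form no channel.

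The study crossed an inhibitor of the histone methyltransferase EZH2, tazemetostat, with an inhibitor of the AKT kinases, ipatasertib, and sequenced polyadenylated RNA. The tazemetostat group received 5 µM tazemetostat from day -5, through passages on day -3 and day -1, until collection. The ipatasertib group was held in the vehicle DMSO over those days and then received 5 µM ipatasertib for 24 h. The combination group had both exposures, and the DMSO group had the vehicle alone. For the last 24 h every group was in medium with 2% serum. Each of the 4 groups had 3 libraries, lettered A, B and C. Separate cultures are not stated for the letters, so the p-values speak for the variation among these libraries only, which may be technical. SUM149PT is a single cell line, and tazemetostat was present for days longer than ipatasertib.

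Ion channels set the resting voltage of a cell and its traffic of sodium, potassium and calcium. Epithelial cells move salt through the epithelial sodium channel, ENaC, and hold their voltage with tandem-pore, inward-rectifier and calcium-activated potassium channels, while the voltage-gated sodium and calcium channels carry the action potentials of nerve and muscle. EZH2 writes the repressive histone mark H3K27me3, which in many cells covers the CG-rich promoters of genes kept off outside their own tissue, several nerve and muscle channels among them. AKT phosphorylates the FOXO transcription factors and holds them out of the nucleus.

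The 250 bases before the start of 6 channel genes are shown first, from RefSeq on GRCh38.p14, in the direction of transcription, with every CG dinucleotide in capitals. KCNH2, KCNN1 and KCNK13 are shown because DMSO cells had 0, 1 and 5 counts of them over 3 libraries while tazemetostat cells had 17, 30 and 28. KCNJ2, KCND2 and KCNK2 are shown because they were the 3 channel genes whose change in the combination differed from the sum of the single changes.
KCNH2, chr7:150978322-150978571, minus strand: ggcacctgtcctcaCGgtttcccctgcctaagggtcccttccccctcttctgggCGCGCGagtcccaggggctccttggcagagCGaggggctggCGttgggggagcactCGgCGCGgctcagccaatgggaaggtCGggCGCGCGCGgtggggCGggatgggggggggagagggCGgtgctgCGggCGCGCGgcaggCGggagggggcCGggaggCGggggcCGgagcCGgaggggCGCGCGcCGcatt
KCNN1, chr19:17966857-17967106, plus strand: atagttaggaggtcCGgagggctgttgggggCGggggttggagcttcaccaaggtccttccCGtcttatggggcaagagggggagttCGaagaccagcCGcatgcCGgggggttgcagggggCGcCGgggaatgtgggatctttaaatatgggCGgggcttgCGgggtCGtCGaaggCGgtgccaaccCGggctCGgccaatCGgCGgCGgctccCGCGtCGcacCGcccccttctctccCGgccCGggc
KCNK13, chr14:90061744-90061993, plus strand: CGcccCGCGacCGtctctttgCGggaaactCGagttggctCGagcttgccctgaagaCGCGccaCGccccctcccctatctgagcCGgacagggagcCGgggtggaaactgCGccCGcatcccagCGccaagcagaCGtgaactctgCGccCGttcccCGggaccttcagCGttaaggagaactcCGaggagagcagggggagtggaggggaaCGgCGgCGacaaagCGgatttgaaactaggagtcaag
KCNJ2, chr17:70169282-70169531, plus strand: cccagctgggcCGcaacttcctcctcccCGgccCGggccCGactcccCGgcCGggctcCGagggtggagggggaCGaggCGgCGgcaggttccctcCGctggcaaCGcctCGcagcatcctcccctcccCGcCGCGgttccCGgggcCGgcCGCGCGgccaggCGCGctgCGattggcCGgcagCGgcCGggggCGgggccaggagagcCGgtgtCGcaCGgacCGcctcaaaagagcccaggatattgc
KCND2, chr7:120272925-120273174, plus strand: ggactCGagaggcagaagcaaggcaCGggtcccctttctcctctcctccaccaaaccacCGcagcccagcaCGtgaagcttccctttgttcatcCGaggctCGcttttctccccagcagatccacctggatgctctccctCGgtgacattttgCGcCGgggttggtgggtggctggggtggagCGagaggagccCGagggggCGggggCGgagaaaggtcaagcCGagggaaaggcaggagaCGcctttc
KCNK2, chr1:215005292-215005541, plus strand: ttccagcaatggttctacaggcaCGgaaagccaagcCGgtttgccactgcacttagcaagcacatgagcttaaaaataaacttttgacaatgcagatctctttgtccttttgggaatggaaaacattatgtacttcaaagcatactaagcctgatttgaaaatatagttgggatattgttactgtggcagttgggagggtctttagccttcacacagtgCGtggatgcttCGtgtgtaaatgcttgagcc
In these stretches CG, which reads the same on both strands, occurred 29 times for KCNH2, 24 times for KCNN1, 25 times for KCNK13, 32 times for KCNJ2, 15 times for KCND2 and 4 times for KCNK2. In the full window of 300 bases, with 50 after the start, the counts were 39, 33, 31, 39, 21 and 5 in the same order. Among 27305 RefSeq windows of that length, 95.8% held a CG and the median was 14. At least as many as the 39 of KCNH2 and KCNJ2 were found in 8.48% of windows, as many as the 33 of KCNN1 in 16.9%, as many as the 31 of KCNK13 in 20.4%, as many as the 21 of KCND2 in 39.5%, and as many as the 5 of KCNK2 in 69.5%. The windows of the 11 genes that fell with tazemetostat varied. They held 53 for KCNIP3, 39 for KCNK5, 33 for KCNJ6, 28 for CACNB1, 23 for KCNE3 and 21 for KCND2. KCNJ8 had 16, KCND1 had 9, KCNJ14 had 7, and KCNJ15 and KCNN4 had 6 each. A promoter was matched for 99 of the 141 genes, and none for SCNN1A. Those 99 included 13 of the 24 genes that rose with tazemetostat and all 11 that fell, and because of that uneven coverage CG content was not compared between them.

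Gene counts per library ran from 22355242 to 49970540, so the limit that a count of 0 allows, 3 counts, came to between 0.0602 and 0.130 CPM, counts scaled to a common library total with TMM. That limit and the intervals below cover counting error only. Tazemetostat libraries held 43226082 to 49970540 counts, ipatasertib libraries 22355242 to 39001543 and combination libraries 26024012 to 35417607, against 32470808 to 44924160 in DMSO libraries. The share of reads in no annotated gene was 18.4% with tazemetostat, 24.6% with ipatasertib, 23.8% with the combination and 19.7% with DMSO, so it moved with ipatasertib, and its part in the results was not tested. Tazemetostat A and combination B stood apart within their groups. A chi-square of their counts against the other libraries of the group gave 14.4 to 24.9 per degree of freedom, against 2.64 to 6.68 for the remaining pairs. The line's keratins and EPCAM were read in every group, although KRT5 averaged 480 CPM with tazemetostat, 146 CPM with ipatasertib and 54.6 CPM with the combination, against 633 CPM with DMSO. Of 33 markers of nerve, muscle, vessel, blood and connective tissue, 2 (MYH1 and MYH6) had 0 counts throughout and 9 in all had fewer than 10. The markers summed to 203 to 211 CPM with tazemetostat, 389 to 420 CPM with ipatasertib and 136 to 144 CPM with the combination, against 602 to 634 CPM with DMSO, mostly as COL1A1 and DCN. Without 4 matrix genes the other 29 summed to 94.0 to 95.4 CPM with tazemetostat, 54.3 to 59.5 CPM with ipatasertib and 56.6 to 58.7 CPM with the combination, against 84.9 to 86.9 CPM with DMSO. The largest of these was the nerve marker NEFL. It averaged 73.5 CPM with tazemetostat, 26.7 CPM with ipatasertib and 30.5 CPM with the combination, against 59.4 CPM with DMSO. The vessel marker PECAM1 went the other way in the combination, at 3.44 to 5.20 CPM, against 0.692 to 1.11 CPM with DMSO. What part these shifts had in the channel values was not tested. In bulk RNA, fewer cells that express a gene and less RNA per cell cannot be told apart.

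Many of the channel genes were at or near 0 in SUM149PT. Of the 141 channel genes, 66 had enough counts to be tested, and 75 did not. Of those 75, 13 had 0 counts in all 12 libraries, 24 had between 1 and 9 counts in total, and 38 had 10 or more, up to 85 for CACNG2 and KCNJ11. The genes that were tested covered 45 potassium, 9 sodium and 12 calcium channel genes. Among 17 pore genes of the Kv1 to Kv4 families 5 were tested, and none of the KCNA genes, which include delayed rectifiers of nerve, was among them, with 62 counts of KCNA7 over the 12 libraries as their highest. KCNMA1, the large-conductance calcium-activated potassium pore, had 1 count, KCNQ1, which forms the slow cardiac potassium current, had 26, and KCNJ3, a G protein-gated inward rectifier, had 2. KCNK9 had 0 counts of 424433459, which allows a level of up to 0.00709 CPM. The L-type calcium pores CACNA1C and CACNA1D had 40 and 5 counts and the T-type pore CACNA1H had 12. The plot of reads by role shows 138 of the genes and names the one with the most reads among those drawn in each family.

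**Figure D1:**
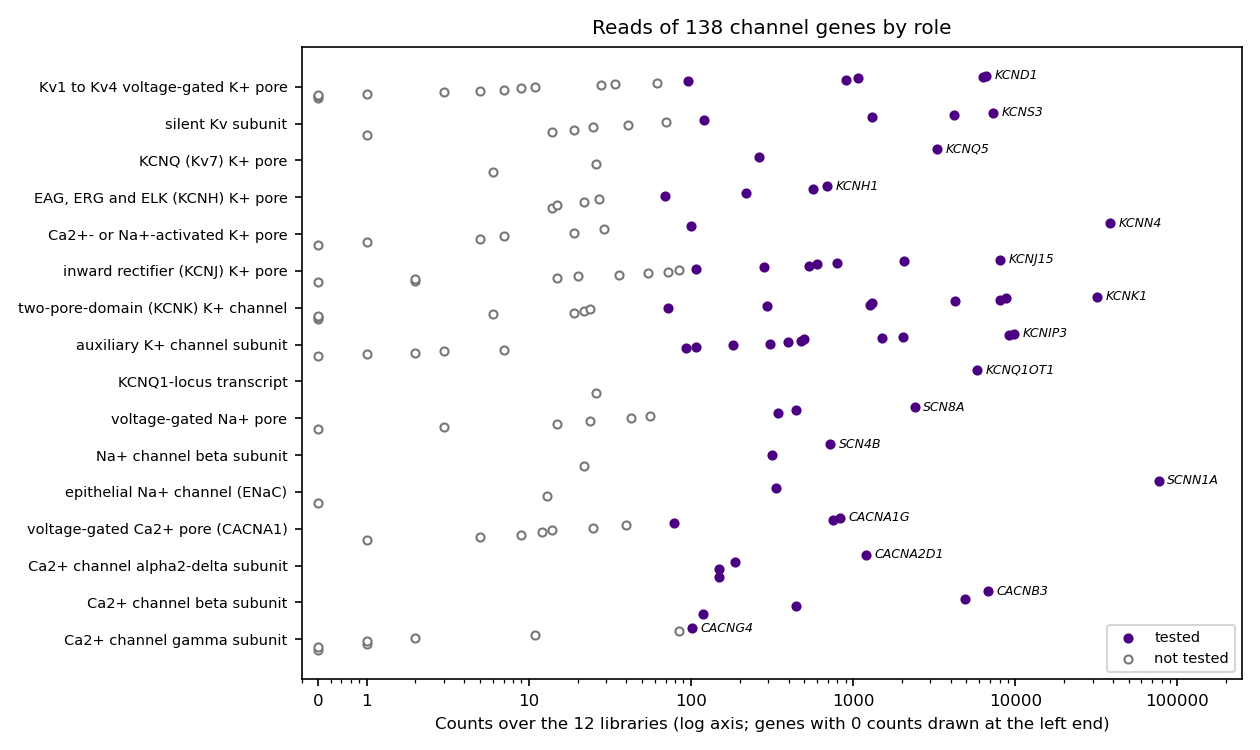
Counts summed over the 12 libraries (log axis) for 138 of the channel genes, in rows by role; filled points are 63 tested genes and open points the 75 not tested. The gene with the most counts among those drawn in each role is named, and SCNN1A, KCNN4 and KCNK1 lie farthest right.

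Taken as a sum, channel reads were more abundant under the combination. The 141 genes summed to 566 ± 8.41 CPM with tazemetostat, 680 ± 16.3 CPM with ipatasertib and 856 ± 43.9 CPM with the combination, against 525 ± 8.96 CPM with DMSO (SD, n = 3 each). SCNN1A alone held 23.4% of these reads with tazemetostat, 29.8% with ipatasertib and 40.6% with the combination, against 15.7% with DMSO. Without SCNN1A the sums were 433 ± 2.05 CPM with tazemetostat, 477 ± 11.0 CPM with ipatasertib and 509 ± 23.1 CPM with the combination, against 443 ± 3.40 CPM with DMSO.

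A gene was called when its adjusted p was under 0.05 in edgeR's quasi-likelihood test, adjusted by Benjamini-Hochberg over all 14874 genes tested. Changes are log2 ratios over 3 libraries a group, with a standard error (SE) taken as the size of the change over the square root of F, which is approximate. With tazemetostat, 24 of the 66 channel genes rose and 11 fell, where 25.1% of all tested genes rose and 20.9% fell. The channel shares were 36.4% and 16.7%, and the median channel gene changed by 0.09, against 0.02 for all genes. With ipatasertib, 16 channel genes rose and 10 fell, or 24.2% and 15.2%, where 25.4% of all tested genes rose and 28.7% fell, and the medians were 0.14 and -0.01. Scaling by total counts instead moved that split to 21 higher and 5 lower, or 31.8% and 7.58%, and moved all tested genes the same way, to 34.4% higher and 20.1% lower. With the combination, 34 channel genes rose and 11 fell, or 51.5% and 16.7%, where 36.5% of all tested genes rose and 34.5% fell, and the medians were 0.49 and 0.02. More than 2-fold rises numbered 14 with tazemetostat, 6 with ipatasertib and 22 with the combination, or 21.2%, 9.09% and 33.3% of the channel genes, where 6.69%, 4.53% and 13.8% of all tested genes rose that far. Falls of that size numbered 4, 1 and 3, or 6.06%, 1.52% and 4.55%, where 1.07%, 2.10% and 5.11% of all tested genes fell that far. The 3 comparisons share the DMSO libraries, so their counts are not independent of each other.

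Part of these counts follows from which genes could be tested. On the DMSO libraries alone, 21 of the 66 genes would not have been tested, and they include 11 of those that rose with tazemetostat and 17 of those that rose with the combination. A gene of that kind had to be higher in some other group to be tested at all. KCNH2, KCNH3, KCNH8, KCNN1, KCNK13, KCNV1, KCNJ5, KCNJ12, SCN9A, SCN3B, CACNA1F, CACNA2D2, CACNA2D3, CACNA2D4, CACNB4 and CACNG4 are among them, so their levels and p-values below describe genes selected in part by that difference and are no independent support for it. Among the 40 channel genes with a mean of at least 1 CPM over all libraries, 14 rose and 10 fell with tazemetostat, 13 rose and 9 fell with ipatasertib, and 17 rose and 9 fell with the combination. Of the 12941 genes at that level, 24.9% rose and 23.1% fell with tazemetostat, 27.0% rose and 31.8% fell with ipatasertib, and 35.5% rose and 37.8% fell with the combination.

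**Figure D2:**
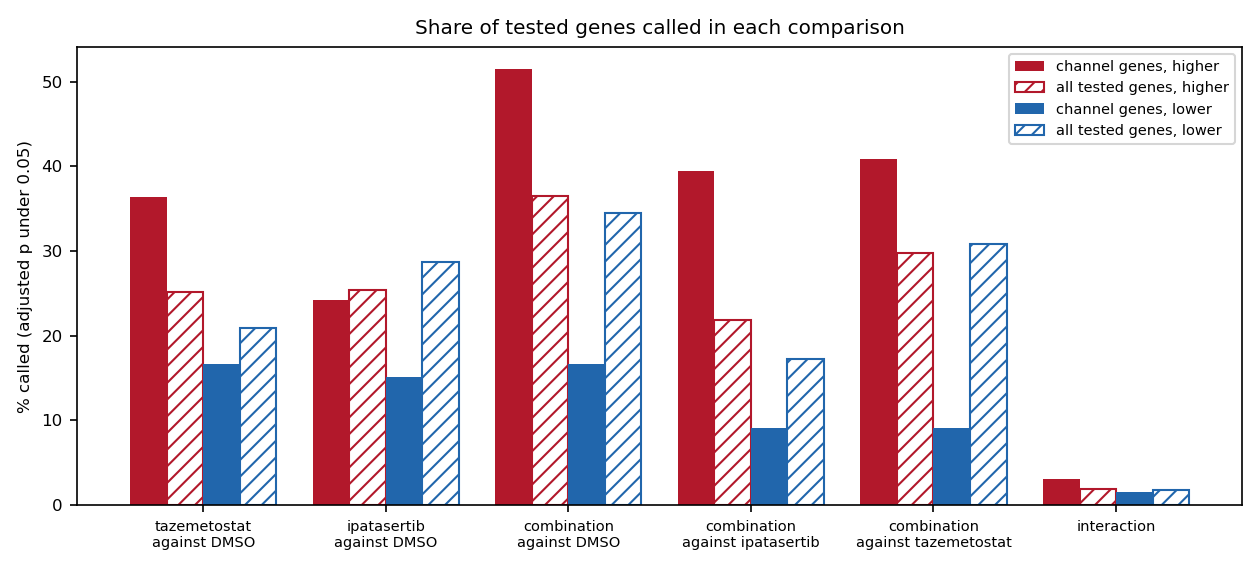
Percentage of tested genes called higher (red) or lower (blue) in each of the 6 comparisons, for the 66 tested channel genes (solid bars) and all 14874 tested genes (hatched bars). In the combination against DMSO, 51.5% of the channel genes rose, against 36.5% of all genes.

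**Figure D3:**
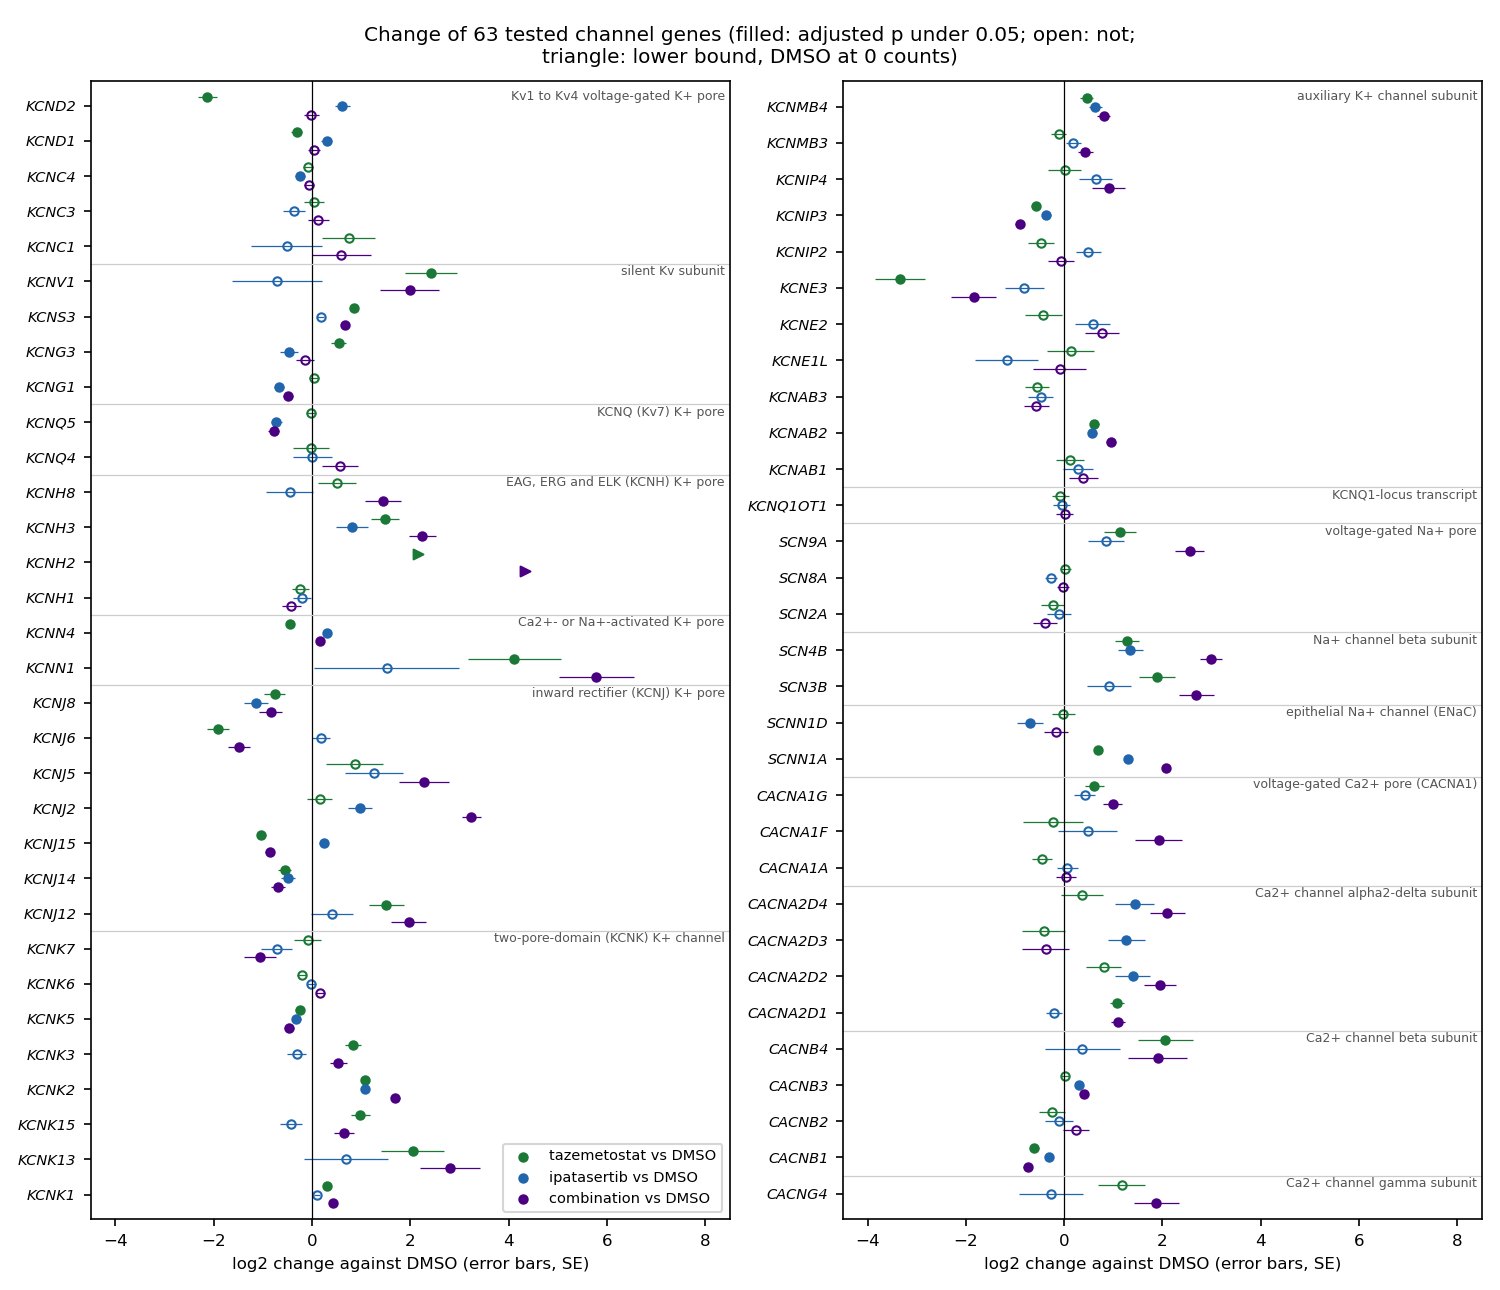
Log2 change against DMSO of 63 tested channel genes, grouped by role, with tazemetostat in green, ipatasertib in blue and the combination in purple; points are fitted changes with SE over 3 libraries a group, filled where the adjusted p was under 0.05. For KCNH2, which had 0 counts in DMSO and ipatasertib cells, the triangles mark lower bounds that leave out the counting error of the treated counts. The sodium channel genes SCN9A, SCN3B and SCN4B lie to the right of 0 with tazemetostat and the combination.

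Among the ENaC genes SCNN1A, the alpha subunit of the pore, rose in every treatment. It had 140, 127 and 131 CPM in libraries A, B and C with tazemetostat, 197, 210 and 202 CPM with ipatasertib and 369, 327 and 348 CPM with the combination, against 76.8, 87.9 and 83.0 CPM with DMSO. All 4 groups were apart, in the order combination, ipatasertib, tazemetostat and DMSO. The log2 change was 0.68 ± 0.06 (SE) with tazemetostat (adjusted p = 5.78e-08), 1.30 ± 0.06 with ipatasertib (adjusted p = 5.72e-12) and 2.08 ± 0.07 with the combination (adjusted p = 1.23e-15), the last a 4.22-fold rise. The combination differed from the sum of the single log2 changes by 0.10 ± 0.09 (adjusted p = 0.616). The exons of SCNN1A overlap those of LTBR on the opposite strand, and the strand setting of the counting is not given in the sources used here, so their reads cannot be told apart with certainty. Such overlaps with another annotated gene, on either strand, were found for 32 of the 66 tested genes, and only some are described below. KCNK15, SCN9A, KCNQ5, KCNE3, CACNB1, CACNA1G, KCNV1, KCNG1 and CACNB4 are among those with an overlap that is not described. LTBR itself averaged 194 CPM with tazemetostat, 211 CPM with ipatasertib and 180 CPM with the combination, against 264 CPM with DMSO, and so went the other way. Of the partners of SCNN1A, SCNN1B had 0 counts in all libraries and SCNN1G had 13. SCNN1D, the delta subunit, averaged 0.877 CPM with tazemetostat, 0.539 CPM with ipatasertib and 0.788 CPM with the combination, against 0.894 CPM with DMSO. SCNN1D was called lower with ipatasertib (-0.69 ± 0.27, adjusted p = 0.0345), a call lost on leaving out any of 5 libraries (adjusted p up to 0.152).

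The regulators of ENaC are well known and were listed separately. SGK1, the kinase that keeps ENaC at the membrane by restraining the ubiquitin ligase NEDD4L, averaged 44.3 CPM with tazemetostat, 24.7 CPM with ipatasertib and 54.2 CPM with the combination, against 38.1 CPM with DMSO. It rose with tazemetostat (0.22, adjusted p = 0.0109), fell with ipatasertib (-0.62, adjusted p = 3.92e-07) and rose with the combination (0.51, adjusted p = 1.25e-06). NEDD4L rose with ipatasertib (0.30, adjusted p = 0.000125) and with the combination (0.60, adjusted p = 7.01e-09), and had 0.09 with tazemetostat (adjusted p = 0.208). PRSS8, a protease that activates ENaC, averaged 29.2 CPM with tazemetostat, 26.4 CPM with ipatasertib and 27.3 CPM with the combination, against 24.0 CPM with DMSO, and was called with tazemetostat alone (0.29, adjusted p = 0.0285). Of the 36 channel regulators listed, which also include kinases, calmodulins, ankyrins and FGF homologous factors, 28 were tested. With tazemetostat 12 rose and 3 fell (median 0.12), with ipatasertib 4 rose and 9 fell (median -0.02), and with the combination 12 rose and 9 fell (median 0.33). These were 42.9% and 10.7%, 14.3% and 32.1%, and 42.9% and 32.1% of the 28, where 25.1% and 20.9%, 25.4% and 28.7%, and 36.5% and 34.5% of all tested genes rose and fell in the same comparisons. ANK3, the ankyrin that anchors sodium and KCNQ channels in the axon membrane, averaged 17.4 CPM with tazemetostat, 31.3 CPM with ipatasertib and 53.3 CPM with the combination, against 10.8 CPM with DMSO. FGF13, an intracellular partner of sodium channel pores, averaged 10.8 CPM with tazemetostat, 4.76 CPM with ipatasertib and 9.99 CPM with the combination, against 4.60 CPM with DMSO. ANK3 rose in all 3 comparisons (adjusted p = 5.58e-06, 7.96e-11 and 3.35e-14), and FGF13 rose with tazemetostat (adjusted p = 5.47e-09) and with the combination (adjusted p = 6.08e-09).

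The calcium-activated potassium channels were KCNN4 and KCNN1. KCNN4, the intermediate-conductance pore of epithelia and blood cells that calmodulin opens, fell with tazemetostat and rose with ipatasertib. It had 69.6, 65.5 and 68.3 CPM with tazemetostat, 113, 117 and 110 CPM with ipatasertib and 107, 95.1 and 105 CPM with the combination, against 88.2, 95.6 and 91.8 CPM with DMSO. Tazemetostat libraries lay below and ipatasertib libraries above all DMSO libraries, while combination B lay among the DMSO libraries. The changes were -0.44 ± 0.06 with tazemetostat (adjusted p = 8.97e-06), 0.31 ± 0.06 with ipatasertib (adjusted p = 0.000258) and 0.16 ± 0.06 with the combination (adjusted p = 0.0262), the last lost on leaving out any of 7 libraries (adjusted p up to 0.126). KCNN1, a small-conductance channel of neurons, had 1 count over the DMSO libraries and 3 over the ipatasertib libraries. It had 30 counts with tazemetostat, at 23.5 times the scaled DMSO level (95% counting interval 3.91 to 960), and 66 with the combination, at 76.8 times (13.3 to 3079). Both rises were called (adjusted p = 0.00151 with tazemetostat and 1.1e-06 with the combination), in a gene that the DMSO libraries alone would not have let into the test.

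The tandem-pore KCNK channels, which leak potassium at rest, had 8 tested genes. With tazemetostat 5 rose and 1 fell, with ipatasertib 1 rose and 1 fell, and with the combination 5 rose and 2 fell, where 25.1% and 20.9%, 25.4% and 28.7%, and 36.5% and 34.5% of all tested genes rose and fell in the same comparisons. KCNK2, a mechanosensitive leak channel, had 19.4, 20.1 and 19.0 CPM with tazemetostat, 18.3, 19.8 and 20.8 CPM with ipatasertib and 28.5, 31.7 and 29.8 CPM with the combination, against 8.44, 9.29 and 10.1 CPM with DMSO. Every treated library was above every DMSO library, the combination was above both single treatments, and tazemetostat and ipatasertib overlapped. The changes were 1.08 ± 0.08 with tazemetostat (adjusted p = 3.18e-09), 1.08 ± 0.08 with ipatasertib (adjusted p = 2.93e-09) and 1.70 ± 0.08 with the combination (adjusted p = 6.31e-13). KCNK1, a weak inward-rectifying leak channel and the KCNK gene with the most reads, averaged 80.5 CPM with tazemetostat, 69.7 CPM with ipatasertib and 88.0 CPM with the combination, against 65.0 CPM with DMSO. It rose with tazemetostat (0.31 ± 0.06, adjusted p = 0.000229) and with the combination (0.44 ± 0.06, adjusted p = 1.22e-06) and had 0.10 ± 0.06 with ipatasertib (adjusted p = 0.155).

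KCNK3, an acid-sensitive leak channel, and KCNK15, a close relative of it, rose with tazemetostat by 0.84 ± 0.16 (adjusted p = 0.000308) and 0.98 ± 0.19 (adjusted p = 0.000308). With the combination they rose by 0.54 ± 0.17 and 0.66 ± 0.20. Both combination calls were lost without combination C (adjusted p = 0.0649 for KCNK3 and 0.0559 for KCNK15). KCNK13, a halothane-inhibited channel, had 28 counts with tazemetostat, 7 with ipatasertib and 32 with the combination, against 5 with DMSO. It rose by 2.05 ± 0.64 with tazemetostat (adjusted p = 0.0135) and 2.81 ± 0.61 with the combination (adjusted p = 0.000409), and the tazemetostat call was lost without tazemetostat A, DMSO A or DMSO B (adjusted p up to 0.0589). KCNK5, an alkali-activated leak channel of epithelia, fell in all 3 treatments, to 20.7 CPM with tazemetostat, 19.8 CPM with ipatasertib and 17.8 CPM with the combination, against 24.5 CPM with DMSO. Its change was -0.46 ± 0.10 with the combination (adjusted p = 0.000242). The smaller falls were -0.25 ± 0.09 with tazemetostat, lost on leaving out any of 5 libraries (adjusted p up to 0.0862), and -0.32 ± 0.10 with ipatasertib, lost without ipatasertib A (adjusted p = 0.0976). KCNK7 was called lower with the combination (-1.05 ± 0.33, adjusted p = 0.00755), a call lost without combination B (adjusted p = 0.0511). KCNK6, a lysosomal and epithelial member, averaged 8.90 CPM with tazemetostat, 10.3 CPM with ipatasertib and 11.6 CPM with the combination, against 10.3 CPM with DMSO, and was not called in any of the 3.

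The inward rectifiers, KCNJ genes whose channels hold the resting voltage, went in both directions. Of 7 tested, 1 rose and 4 fell with tazemetostat, 2 rose and 2 fell with ipatasertib, and 3 rose and 4 fell with the combination. Over all tested genes 25.1% rose and 20.9% fell with tazemetostat, 25.4% and 28.7% with ipatasertib, and 36.5% and 34.5% with the combination. KCNJ2, the strong inward rectifier of heart and skeletal muscle, had 0.815, 0.558 and 0.683 CPM with tazemetostat, 1.03, 1.25 and 1.43 CPM with ipatasertib and 5.80, 5.95 and 5.75 CPM with the combination, against 0.492, 0.541 and 0.850 CPM with DMSO. Tazemetostat overlapped DMSO, ipatasertib was just above both, and the combination was several times higher than any other group. The change was 0.16 ± 0.25 with tazemetostat (adjusted p = 0.632), 0.98 ± 0.24 with ipatasertib (adjusted p = 0.00209) and 3.24 ± 0.19 with the combination (adjusted p = 1.32e-11), a 9.45-fold rise. The exons of KCNJ2 overlap those of the antisense transcript KCNJ2-AS1, a symbol that is not among the genes counted. Without the strand setting, its reads cannot be told apart from those of KCNJ2.

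KCNJ15, a weak rectifier of kidney and other epithelia, and KCNJ6, a G protein-gated channel of neurons, fell with tazemetostat whether or not ipatasertib was present. KCNJ15 had 11.0, 13.6 and 11.6 CPM with tazemetostat, 28.4, 29.3 and 29.6 CPM with ipatasertib and 12.2, 14.2 and 14.2 CPM with the combination, against 22.7, 25.1 and 26.3 CPM with DMSO. No library with tazemetostat reached a library without it. The changes were -1.03 ± 0.09 with tazemetostat (adjusted p = 1.5e-08), 0.24 ± 0.09 with ipatasertib (adjusted p = 0.0243) and -0.86 ± 0.09 with the combination (adjusted p = 5.09e-08), and the ipatasertib call was lost without ipatasertib B or DMSO A (adjusted p up to 0.0843). KCNJ6 had 0.373, 0.721 and 0.602 CPM with tazemetostat, 2.68, 2.55 and 2.04 CPM with ipatasertib and 0.609, 0.967 and 0.735 CPM with the combination, against 2.30, 1.95 and 2.19 CPM with DMSO. Here too the groups with and without tazemetostat did not overlap. It changed by -1.92 ± 0.22 with tazemetostat (adjusted p = 9.69e-07), 0.19 ± 0.19 with ipatasertib (adjusted p = 0.422) and -1.49 ± 0.23 with the combination (adjusted p = 8.85e-06). Exons of KCNJ15 and KCNJ6 overlap those of the noncoding genes DSCR8 and DSCR4 on the same strand. DSCR8 averaged 0.286 CPM with tazemetostat, 3.77 CPM with ipatasertib and 1.02 CPM with the combination, against 1.08 CPM with DMSO, and DSCR4 had 1 count in all.

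KCNJ8, the pore of ATP-sensitive channels in vascular muscle, fell by 0.76 with tazemetostat, by 1.14 with ipatasertib and by 0.84 with the combination on the log2 scale (adjusted p = 0.0084, 0.00064 and 0.00369), and the first was lost without DMSO B (adjusted p = 0.0666). KCNJ14 fell by 0.55 with tazemetostat, by 0.49 with ipatasertib and by 0.68 with the combination (adjusted p = 0.0022, 0.0056 and 0.000231). It shares exon sequence with GRWD1 on the same strand, which averaged 57.8 CPM with tazemetostat, 42.4 CPM with ipatasertib and 35.6 CPM with the combination, against 71.3 CPM with DMSO, and so fell too. KCNJ5, the partner of KCNJ3 in the G protein-gated channel of the atrium, was called in the combination (2.28 ± 0.51, adjusted p = 0.000514), where it averaged 0.523 CPM, against 0.109 CPM with DMSO. KCNJ12 rose with tazemetostat (1.51 ± 0.35, adjusted p = 0.00163) and with the combination (1.97 ± 0.35, adjusted p = 4.92e-05), but its near-identical copy KCNJ18 makes the assignment of its reads uncertain.

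Voltage-gated potassium pores of the Kv1 to Kv4 families showed no common direction. KCND2, which carries transient A-type current in neurons and heart, had 0.536, 0.721 and 0.462 CPM with tazemetostat, 3.69, 4.03 and 3.83 CPM with ipatasertib and 2.22, 2.60 and 2.59 CPM with the combination, against 2.20, 2.74 and 2.58 CPM with DMSO. Tazemetostat libraries were the lowest, ipatasertib libraries the highest, and the combination libraries overlapped the DMSO libraries. The changes were -2.13 ± 0.19 with tazemetostat (adjusted p = 2.44e-08), 0.62 ± 0.15 with ipatasertib (adjusted p = 0.00166) and -0.01 ± 0.16 with the combination (adjusted p = 0.958). KCND1, of the same A-type family, averaged 12.8 CPM with tazemetostat, 19.6 CPM with ipatasertib and 16.3 CPM with the combination, against 15.9 CPM with DMSO. Its fall with tazemetostat (-0.31 ± 0.12, adjusted p = 0.0356) and rise with ipatasertib (0.30 ± 0.12, adjusted p = 0.036) were lost on leaving out any of 4 and of 5 libraries (adjusted p up to 0.0803 and 0.155). KCNC4, a fast pore of the Kv3 family, was called lower with ipatasertib (-0.24 ± 0.10, adjusted p = 0.0427), which was lost on leaving out any of 7 libraries (adjusted p up to 0.285).

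The electrically silent subunits, which reach the membrane only beside KCNB pores and retune them, had 4 tested genes. KCNS3 had 22.6, 21.9 and 21.3 CPM with tazemetostat, 13.3, 14.2 and 13.8 CPM with ipatasertib and 18.8, 19.8 and 19.9 CPM with the combination, against 12.3, 12.8 and 11.3 CPM with DMSO. Both groups that received tazemetostat were above both that did not. It rose by 0.85 ± 0.07 with tazemetostat (adjusted p = 1.61e-08) and 0.68 ± 0.08 with the combination (adjusted p = 1.09e-07), and had 0.18 ± 0.08 with ipatasertib (adjusted p = 0.0621). KCNG1 fell with ipatasertib (-0.67 ± 0.11, adjusted p = 2.35e-05) and with the combination (-0.48 ± 0.10, adjusted p = 0.000366) and had 0.04 ± 0.10 with tazemetostat (adjusted p = 0.778). KCNG3 rose with tazemetostat (0.54 ± 0.16, adjusted p = 0.00825) and was called lower with ipatasertib (-0.47 ± 0.18, adjusted p = 0.0354), calls lost on leaving out any of 2 and of 6 libraries (adjusted p up to 0.0717 and 0.131). KCNV1 had 71 counts with tazemetostat, 5 with ipatasertib and 35 with the combination, against 10 with DMSO, and was called with tazemetostat (2.42 ± 0.53, adjusted p = 0.00102) and with the combination (1.99 ± 0.60, adjusted p = 0.00572).

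**Figure D4:**
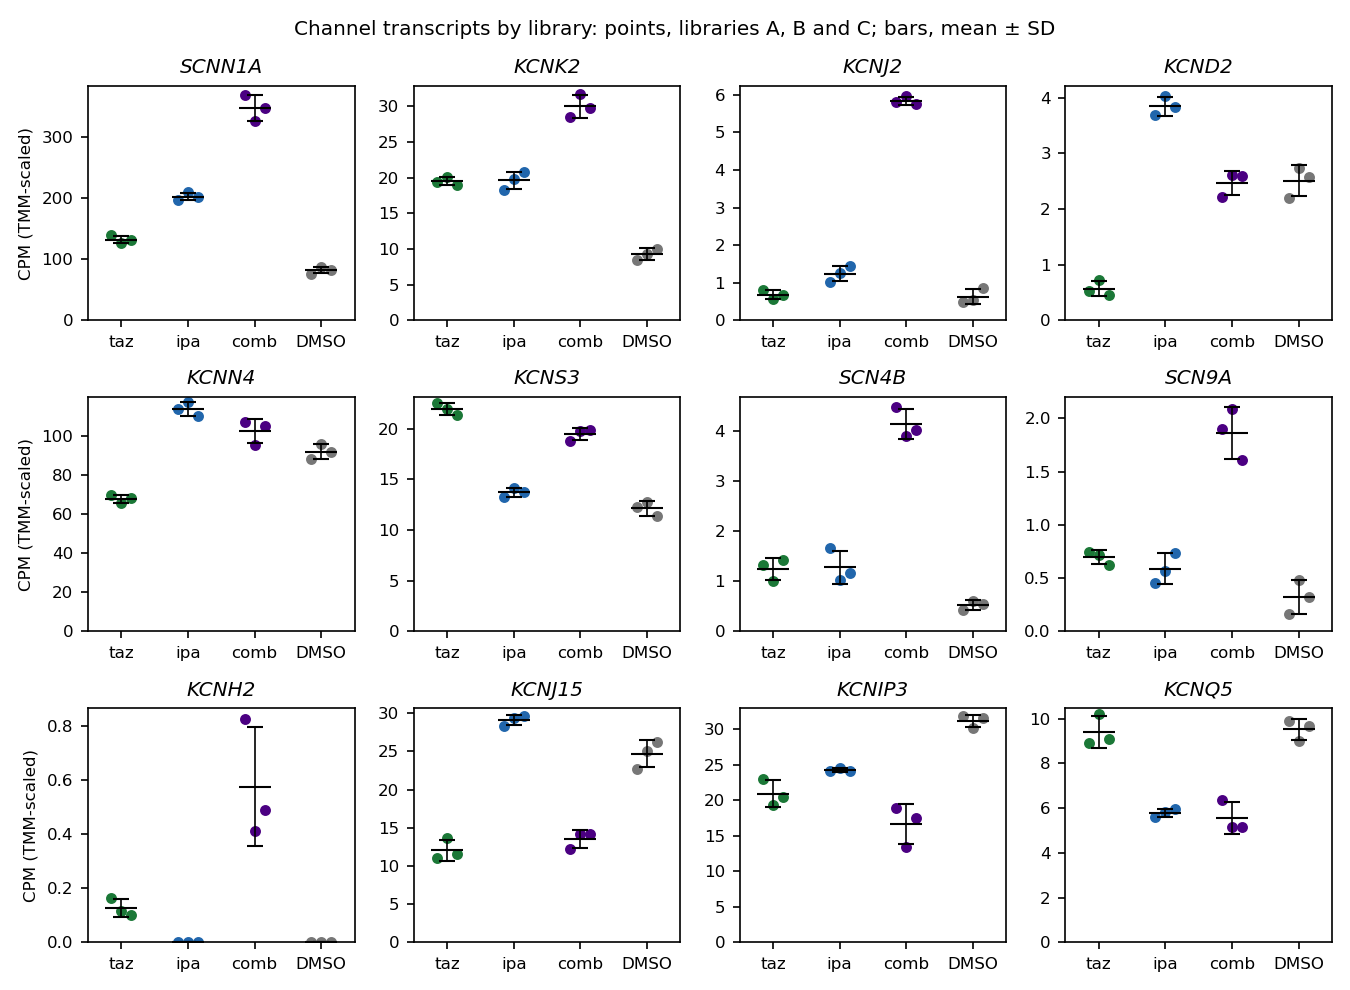
CPM of 12 channel genes in each library, by group from left to right tazemetostat (taz), ipatasertib (ipa), combination (comb) and DMSO; points are libraries A, B and C, and bars the mean and SD (n = 3). KCNJ2 stands high in the combination alone, at 5.75 to 5.95 CPM, KCND2 is low in tazemetostat alone, at 0.462 to 0.721 CPM, and KCNH2 is at 0 with ipatasertib and DMSO.

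Among the KCNQ pores, which hold back repetitive firing in neurons, KCNQ5 had 8.90, 10.2 and 9.10 CPM with tazemetostat, 5.59, 5.82 and 5.96 CPM with ipatasertib and 6.37, 5.17 and 5.15 CPM with the combination, against 9.89, 8.99 and 9.68 CPM with DMSO. Both groups with ipatasertib were below both without it. The changes were -0.02 ± 0.10 with tazemetostat (adjusted p = 0.88), -0.72 ± 0.10 with ipatasertib (adjusted p = 8.9e-06) and -0.78 ± 0.10 with the combination (adjusted p = 1.58e-06). KCNQ1OT1, the imprinted antisense transcript of the KCNQ1 locus, averaged 13.3 CPM with tazemetostat, 13.7 CPM with ipatasertib and 14.1 CPM with the combination, against 14.0 CPM with DMSO. Its largest change of the 3 was -0.08 ± 0.17 (adjusted p = 0.722).

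The KCNH pores had 4 tested genes. KCNH2, the rapid delayed rectifier of heart known as hERG, had 7, 5 and 5 counts in the tazemetostat libraries and 23, 11 and 18 in the combination libraries, against 0 in each ipatasertib and each DMSO library. Setting DMSO at the 3 counts over its libraries that a count of 0 allows, the level was at least 4.45-fold higher with tazemetostat and at least 20.2-fold higher with the combination. Against ipatasertib the combination was at least 16.9-fold higher. These bounds take the treated counts as read and leave out their counting error. The adjusted p was 0.00444 with tazemetostat and 3.96e-06 with the combination, but with 0 counts in DMSO and ipatasertib cells the gene entered the test only through the groups where it was read. KCNH3, an ELK-type pore of forebrain, had 1.44, 1.23 and 1.69 CPM with tazemetostat, 1.15, 0.722 and 0.782 CPM with ipatasertib and 2.29, 2.08 and 3.0 CPM with the combination, against 0.774, 0.421 and 0.294 CPM with DMSO. Tazemetostat and combination libraries lay above the DMSO libraries, and ipatasertib overlapped DMSO. It rose by 1.48 ± 0.28 with tazemetostat (adjusted p = 0.000317) and 2.25 ± 0.28 with the combination (adjusted p = 4.84e-07). The ipatasertib call (0.82 ± 0.33, adjusted p = 0.0411) was lost without ipatasertib A, DMSO B or DMSO C (adjusted p up to 0.279). The gene MCRS1, which overlaps KCNH3 on the opposite strand, averaged 41.6 CPM with tazemetostat, 37.1 CPM with ipatasertib and 37.1 CPM with the combination, against 40.1 CPM with DMSO. KCNH8 was called in the combination (1.45 ± 0.36, adjusted p = 0.0015), while KCNH1, the EAG channel often studied in tumours, averaged 1.61 CPM with tazemetostat, 1.61 CPM with ipatasertib and 1.40 CPM with the combination, against 1.87 CPM with DMSO, and was not called.

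Of the auxiliary subunits of potassium channels 11 were tested. KCNIP3, a calcium-binding partner of KCND pores that also acts as a transcriptional repressor, had 23.0, 19.3 and 20.5 CPM with tazemetostat, 24.1, 24.6 and 24.2 CPM with ipatasertib and 18.9, 13.5 and 17.6 CPM with the combination, against 31.9, 30.2 and 31.6 CPM with DMSO. DMSO was above every treated library and the combination below every other. KCNIP3 changed by -0.58 ± 0.09 with tazemetostat (adjusted p = 4.71e-05), -0.36 ± 0.09 with ipatasertib (adjusted p = 0.00279) and -0.90 ± 0.10 with the combination (adjusted p = 6.37e-08). KCNE3, a partner of KCNQ1 in epithelia, averaged 0.0455 CPM with tazemetostat, 0.287 CPM with ipatasertib and 0.134 CPM with the combination, against 0.485 CPM with DMSO. It changed by -3.34 ± 0.52 with tazemetostat (adjusted p = 3.28e-05), -0.81 ± 0.40 with ipatasertib (adjusted p = 0.0919) and -1.84 ± 0.46 with the combination (adjusted p = 0.00141). KCNE3 had 51 counts over the DMSO libraries, 24 with ipatasertib, 12 with the combination and 6 with tazemetostat. It was tested through the groups where it was high, so these values are no independent support for its fall. Its tazemetostat mean lay below the limit of 3 counts in a library.

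KCNAB2, the beta subunit of Kv1 pores with an aldo-keto reductase fold, rose in all 3 treatments, to 22.5 CPM with tazemetostat, 21.9 CPM with ipatasertib and 28.4 CPM with the combination, against 14.7 CPM with DMSO (adjusted p = 2.32e-05, 3.95e-05 and 1.89e-08). The overlapping gene NPHP4 on the opposite strand averaged 13.4 CPM with tazemetostat, 16.1 CPM with ipatasertib and 14.9 CPM with the combination, against 13.7 CPM with DMSO. KCNMB4, a beta subunit of the KCNMA1 channel, rose by 0.46 ± 0.13 with tazemetostat, 0.63 ± 0.13 with ipatasertib and 0.81 ± 0.13 with the combination (adjusted p = 0.00667, 0.000477 and 1.53e-05), the first lost without tazemetostat B or DMSO B (adjusted p up to 0.0562). The pore it belongs to had 1 count, and the Kv1 pores of KCNAB2 were not tested. KCNIP4 and KCNMB3 were called in the combination (0.90 ± 0.33 and 0.43 ± 0.15, adjusted p = 0.0188 and 0.014). KCNIP4 lost its call without combination C or DMSO C (adjusted p up to 0.157) and KCNMB3 without combination B or DMSO A (adjusted p up to 0.0813). KCNMB3 overlaps PIK3CA on the opposite strand, and PIK3CA averaged 46.2 CPM with the combination against 29.3 CPM with DMSO, so it rose too. The other 5 auxiliary genes, KCNAB1, KCNAB3, KCNE1L, KCNE2 and KCNIP2, were called in none of the 3 comparisons.

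Among the sodium channel genes of nerve and muscle, SCN9A, SCN3B and SCN4B were low in DMSO cells and were called higher with tazemetostat and with the combination. SCN9A and SCN3B could not have been tested on the DMSO libraries alone. SCN9A, the pore of pain-sensing neurons, had 0.745, 0.721 and 0.622 CPM with tazemetostat, 0.452, 0.570 and 0.739 CPM with ipatasertib and 1.90, 2.08 and 1.61 CPM with the combination, against 0.164, 0.481 and 0.327 CPM with DMSO. The combination was above all other groups, and ipatasertib overlapped DMSO. It changed by 1.14 ± 0.33 with tazemetostat (adjusted p = 0.00763), 0.85 ± 0.36 with ipatasertib (adjusted p = 0.0545) and 2.55 ± 0.29 with the combination (adjusted p = 1.97e-07), and the first call was lost without DMSO A (adjusted p = 0.0812). SCN8A, the pore with the most reads, averaged 5.96 CPM with tazemetostat, 4.89 CPM with ipatasertib and 5.82 CPM with the combination, against 5.89 CPM with DMSO, and neither it nor SCN2A was called.

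SCN4B and SCN3B are sodium channel beta subunits, adhesion proteins that also set the kinetics of the pore. SCN4B had 1.33, 1.0 and 1.43 CPM with tazemetostat, 1.66, 1.03 and 1.17 CPM with ipatasertib and 4.48, 3.91 and 4.03 CPM with the combination, against 0.422, 0.602 and 0.556 CPM with DMSO. The single treatments overlapped each other, lay above DMSO and lay below the combination. It rose by 1.27 ± 0.24 with tazemetostat (adjusted p = 0.000314), 1.35 ± 0.26 with ipatasertib (adjusted p = 0.000179) and 2.99 ± 0.22 with the combination (adjusted p = 2.32e-10). SCN3B had 0.815, 0.512 and 1.18 CPM with tazemetostat, 0.351, 0.570 and 0.391 CPM with ipatasertib and 1.47, 1.12 and 1.77 CPM with the combination, against 0.211, 0.271 and 0.196 CPM with DMSO. All treated libraries were above all DMSO libraries. It rose by 1.89 ± 0.37 with tazemetostat (adjusted p = 0.000372) and 2.69 ± 0.35 with the combination (adjusted p = 1.26e-06).

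Calcium channel genes had 12 tested members. The pore CACNA1G, of the low-voltage T type, averaged 2.07 CPM with tazemetostat, 1.81 CPM with ipatasertib and 2.68 CPM with the combination, against 1.36 CPM with DMSO. It rose with the combination (0.99 ± 0.19, adjusted p = 0.000152), and its tazemetostat call (0.61 ± 0.19, adjusted p = 0.014) was lost without tazemetostat B, DMSO A or DMSO B (adjusted p up to 0.0959). CACNA1F, the L-type pore of photoreceptors, was called in the combination (1.92 ± 0.48, adjusted p = 0.0013) at 0.436 CPM, against 0.113 CPM with DMSO. CACNA1A, the P/Q-type pore of nerve endings, averaged 1.39 CPM with tazemetostat, 2.05 CPM with ipatasertib and 1.96 CPM with the combination, against 1.90 CPM with DMSO, and was not called.

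The alpha2-delta subunits bring calcium pores to the membrane, and CACNA2D1 and CACNA2D2 are the targets of gabapentin. CACNA2D1 had 3.77, 3.88 and 3.79 CPM with tazemetostat, 1.81, 1.37 and 1.43 CPM with ipatasertib and 4.26, 4.09 and 3.38 CPM with the combination, against 1.78, 1.89 and 1.77 CPM with DMSO. Both groups with tazemetostat were above both without it, and the changes were 1.07 ± 0.14 with tazemetostat (adjusted p = 4.67e-06), -0.21 ± 0.17 with ipatasertib (adjusted p = 0.311) and 1.10 ± 0.15 with the combination (adjusted p = 1.44e-06). CACNA2D2 averaged 0.349 CPM with tazemetostat, 0.515 CPM with ipatasertib and 0.770 CPM with the combination, against 0.200 CPM with DMSO. CACNA2D4 averaged 0.209 CPM with tazemetostat, 0.439 CPM with ipatasertib and 0.693 CPM with the combination, against 0.162 CPM with DMSO. Those genes were called with ipatasertib (adjusted p = 0.00254 for CACNA2D2 and 0.00457 for CACNA2D4) and with the combination (adjusted p = 2.56e-05 and 3.03e-05), and had adjusted p = 0.0739 and 0.508 with tazemetostat, where every CACNA2D2 library (0.301 to 0.396 CPM) was above those with DMSO (0.164 to 0.241 CPM). Tazemetostat and ipatasertib were not tested against each other. CACNA2D2 overlaps CYB561D2 on the opposite strand, which fell with the combination (-0.72, adjusted p = 2.88e-05). CACNA2D3 was called with ipatasertib (1.27 ± 0.38, adjusted p = 0.00855), which was lost without ipatasertib A or DMSO B (adjusted p up to 0.076).

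Among the calcium channel beta subunits, which bind the pore on its cytosolic side and stop it from being degraded, CACNB1 had 10.2, 8.96 and 10.7 CPM with tazemetostat, 12.4, 11.8 and 12.4 CPM with ipatasertib and 9.74, 8.71 and 8.66 CPM with the combination, against 15.5, 14.3 and 15.6 CPM with DMSO. All treated libraries were below all DMSO libraries. It changed by -0.60 ± 0.09 with tazemetostat (adjusted p = 1.21e-05), -0.31 ± 0.09 with ipatasertib (adjusted p = 0.00607) and -0.75 ± 0.09 with the combination (adjusted p = 3.73e-07). CACNB3 averaged 14.6 CPM with tazemetostat, 17.9 CPM with ipatasertib and 19.0 CPM with the combination, against 14.4 CPM with DMSO, and rose with ipatasertib (0.31 ± 0.08, adjusted p = 0.00345) and with the combination (0.40 ± 0.08, adjusted p = 0.00024). CACNB4 averaged 0.433 CPM with tazemetostat, 0.129 CPM with ipatasertib and 0.400 CPM with the combination, against 0.0979 CPM with DMSO, and rose with tazemetostat (2.06 ± 0.56, adjusted p = 0.00547) and with the combination (1.90 ± 0.61, adjusted p = 0.00858). CACNG4, a gamma subunit that also escorts glutamate receptors, was called in the combination (1.88 ± 0.46, adjusted p = 0.00124). Of the high-voltage pores these subunits serve, CACNA1A had 753 counts over the 12 libraries, against the 40 and 5 of CACNA1C and CACNA1D.

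Adding tazemetostat to ipatasertib, read as the combination against ipatasertib, raised 26 channel genes and lowered 6, where 21.8% of all tested genes rose and 17.3% fell. Adding ipatasertib to tazemetostat, read as the combination against tazemetostat, raised 27 and lowered 6, where 29.8% of all tested genes rose and 30.8% fell. The channel shares were 39.4% and 9.09% in the first comparison and 40.9% and 9.09% in the second. These comparisons share the combination libraries. KCNJ2 rose by 2.26 ± 0.18 against ipatasertib (adjusted p = 4.53e-09) and by 3.08 ± 0.18 against tazemetostat (adjusted p = 2.58e-11). SCN4B rose by 1.64 ± 0.19 against ipatasertib (adjusted p = 9.36e-07) and by 1.72 ± 0.18 against tazemetostat (adjusted p = 7.71e-08). SCNN1A rose by 0.78 ± 0.06 against ipatasertib (adjusted p = 7.33e-09) and by 1.39 ± 0.06 against tazemetostat (adjusted p = 7.93e-13). SCN9A and KCNK2 were also higher in the combination than in either single treatment, and CACNA2D1 and KCNS3 were called higher than with ipatasertib. Against tazemetostat CACNA2D1 had 0.03 ± 0.13 (adjusted p = 0.906), and KCNS3 was called lower (-0.17 ± 0.07, adjusted p = 0.044), a call lost on leaving out any of 11 libraries (adjusted p up to 0.194).

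The interaction compares the change in the combination with the sum of the single log2 changes. It called 2 channel genes higher and 1 lower, where 1.87% of all tested genes were higher and 1.75% lower, so the count of 3 in 66 was close to the background. KCNJ2 exceeded the sum by 2.11 ± 0.32 (adjusted p = 0.000693), 4.3-fold. KCND2 exceeded it by 1.49 ± 0.25 (adjusted p = 0.00146), and its change by tazemetostat was -0.63 ± 0.15 beside ipatasertib (adjusted p = 0.00276), against -2.13 ± 0.19 without it. KCNK2 differed from the sum by -0.46 ± 0.11 (adjusted p = 0.0259), a call lost on leaving out any of 8 libraries (adjusted p up to 0.101). The plot of tazemetostat changes with and without ipatasertib shows these 3 genes beside 5 that did not pass this test. Without tazemetostat A and combination B, the libraries that stood apart, the interaction called 9 channel genes higher and 2 lower of 68 tested, or 13.2% and 2.94%, while 17.1% of all 15002 genes tested were higher and 14.7% lower.

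**Figure D5:**
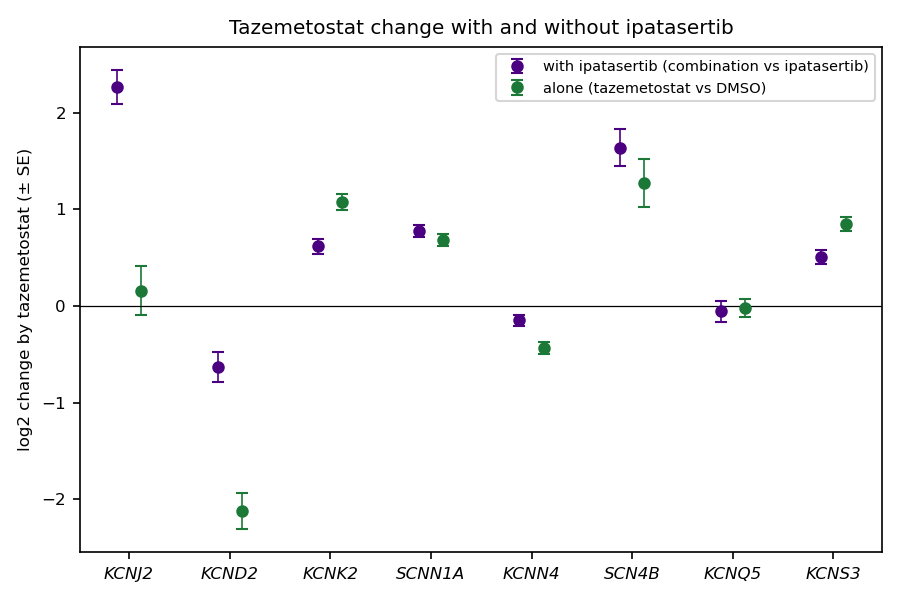
Log2 change by tazemetostat (± SE) in 8 channel genes, with ipatasertib (purple, combination against ipatasertib) and alone (green, tazemetostat against DMSO). KCNJ2 rose by 2.26 with ipatasertib present and had 0.16 alone, KCND2 had -0.63 and -2.13, and SCNN1A had 0.78 and 0.68.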

How the data were processed

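Reads per gene were deposited by the authors as raw counts, 1 file for each of 12 libraries. The tools named in the submitters' processing notes are STAR, SAMtools, HTSeq and DESeq2, and the build is hg19. A version, an annotation or a strand option was not given in the sources used here. The 5 HTSeq summary lines that name no gene, 29.8% to 38.6% of all lines' counts, were left out. The 12 sample columns of the series' normalized table were not used.

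Counts were fitted in R 4.3.3 with edgeR 4.0.16 (limma 3.58.1): filterByExpr, TMM scaling and a quasi-likelihood F-test in 1 model of all 4 groups, with Benjamini-Hochberg adjustment over 14874 genes and a threshold of 0.05. The fit was tested on simulated data before use. CPM are the counts relative to each library's TMM-scaled total. Alternatives were other scalings, other filters, DESeq2 1.42.0, a test against 1.5-fold, fits of only the groups compared, a replicate block, and leaving out libraries.

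The channel genes and the lists were chosen with earlier results of these data known. Genes were named by their rank among calls, their mean level and a list of names, and others were added to complete a role after their values were seen. Some channel genes that entered the fit and the counts are not reported here by name. Overlaps of exons came from GENCODE v29, and promoters from RefSeq, whose build GRCh38.p14 differs from that of the counts and served for sequence only.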

Additional observations from a re-analysis of the deposited data

Results flagged for a closer look

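The change by tazemetostat differed with and without ipatasertib in 3 channel genes, by the test of that difference itself (edgeR's quasi-likelihood test, adjusted over all genes). For KCNJ2 the difference was 2.11 (adjusted p = 0.000693), with each of the 3 combination libraries above every other library. For KCND2 it was 1.49 (adjusted p = 0.00146), with each of the 3 tazemetostat libraries below every other library. For KCNK2 it was -0.46 (adjusted p = 0.0259), and that call was lost on leaving out any of 8 libraries.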

How the results depend on the processing

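No channel gene reversed a call in any of the 6 comparisons. With a filter on mean CPM, 12949 genes were tested, 40 of them channel genes. Of these 40, 14 (35%) rose with tazemetostat, 18 (45%) with the combination and 13 (32.5%) with the combination against ipatasertib. Of the 12949 genes, 24.6%, 38.1% and 21.2% rose in the same order. Tested against 1.5-fold, 12 of 66 channel genes rose and 4 fell with tazemetostat (18.2% and 6.06%), where 6.29% of all tested genes rose and 1.06% fell. With ipatasertib 3 rose and 0 fell (4.55% and 0%), where 4.61% of all tested genes rose and 2.72% fell. With the combination 25 rose and 6 fell (37.9% and 9.09%), where 16.4% of all tested genes rose and 9.43% fell. In the same test 15 rose and 3 fell in the combination against ipatasertib, where 6.71% of all tested genes rose and 0.827% fell. Against tazemetostat 10 rose and 0 fell, where 8.01% of all tested genes rose and 5.43% fell. In the interaction 1 was higher and 0 lower, where 0.0941% of all tested genes were higher and 0.0134% lower. There KCND2 and KCNK2 lost their calls.

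Scaling by total counts shifted the median gene by 0.07 with tazemetostat, 0.12 with ipatasertib and 0.14 with the combination. Under it 5 of 66 channel genes fell with ipatasertib (7.58%) and 2 were lower in the interaction (3.03%), where 20.1% and 3.77% of all tested genes did so. CACNB1, KCNK5, KCNG3, KCNC4 and SCNN1D lost their ipatasertib calls, and KCND1 and KCNK5 their tazemetostat calls. DESeq2 called 2 channel genes lower in the interaction, and 458 lower over all genes. Without tazemetostat A and combination B the interaction called 9 higher and 2 lower, and 2565 higher and 2201 lower over all genes, 17.1% and 14.7%, against 278 and 261 with them. The cause was not tested.

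Leaving out 1 library at a time gave 20 to 26 higher and 8 to 15 lower with tazemetostat, 14 to 19 and 7 to 11 with ipatasertib, and 32 to 37 and 10 to 13 with the combination. It gave 24 to 29 and 6 to 9 against ipatasertib, 26 to 31 and 3 to 6 against tazemetostat (3 without combination B), and 2 to 4 and 0 to 2 in the interaction (4 higher without tazemetostat A or combination B). Over all genes the same fits called 2707 to 4006 higher and 2636 to 3895 lower with tazemetostat. They called 3322 to 4392 and 3485 to 4377 with ipatasertib, and 5051 to 5638 and 4685 to 5365 with the combination. The counts were 2680 to 3276 and 2160 to 3092 against ipatasertib, and 4261 to 5025 and 3789 to 4555 against tazemetostat. In the interaction they were 150 to 1325 and 93 to 1118.

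Correlations of same-letter deviations ran from -0.07 to 0.30, and 2 of 18 pairs were over 0.1. Both of these were tazemetostat with combination, at 0.30 for A and 0.21 for B. Of the 12 libraries, 6 correlated best with their own letter. The meaning of the letters is not stated, so these values cannot decide whether they pair the samples. With the replicate block the counts against DMSO stayed at 24 higher and 11 lower with tazemetostat, 16 and 10 with ipatasertib, and 34 and 11 with the combination, and no single call of a channel gene against DMSO or in the interaction changed. Over all genes the block called 3849 higher and 3274 lower with tazemetostat, against 3737 and 3112 without it. It called 3862 and 4388 with ipatasertib, against 3771 and 4269, and 5473 and 5225 with the combination, against 5435 and 5130. Depth limits the genes with few counts, such as KCNH2, KCNN1 and KCNK13, whose folds rest on 0 to 5 DMSO counts. It also limits KCNE3, whose fall with tazemetostat rests on 6 tazemetostat counts.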

Other observations

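Other genes of ion transport were listed beside the potassium, sodium and calcium channels. Of 71 other ion channels 45 were tested, and 9 rose and 13 fell with tazemetostat, 16 rose and 10 fell with ipatasertib, and 22 rose and 11 fell with the combination. These were 20.0% and 28.9%, 35.6% and 22.2%, and 48.9% and 24.4% of the 45, where 25.1% and 20.9%, 25.4% and 28.7%, and 36.5% and 34.5% of all tested genes rose and fell. RYR1, the calcium release channel of skeletal muscle, averaged 3.37 CPM with tazemetostat, 0.592 CPM with ipatasertib and 4.15 CPM with the combination, against 0.273 CPM with DMSO (adjusted p = 1.55e-10, 0.0107 and 7.77e-12). ANO1, a calcium-activated chloride channel of epithelia, averaged 13.3 CPM with tazemetostat, 5.03 CPM with ipatasertib and 23.1 CPM with the combination, against 5.44 CPM with DMSO. Its combination exceeded the sum of the single log2 changes by 0.91 (adjusted p = 0.00198). STIM1, the sensor that opens store-operated calcium channels, averaged 118 CPM with tazemetostat, 114 CPM with ipatasertib and 93.0 CPM with the combination, against 167 CPM with DMSO, a fall in each comparison (adjusted p = 2.95e-07, 7.08e-08 and 4.05e-11).

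Of 40 ion pumps and exchangers 26 were tested, and 11 rose and 8 fell with tazemetostat, 6 rose and 11 fell with ipatasertib, and 13 rose and 10 fell with the combination. These were 42.3% and 30.8%, 23.1% and 42.3%, and 50% and 38.5% of the 26, beside the same shares of all tested genes. SLC8A1, which exchanges sodium for calcium, averaged 46.1 CPM with tazemetostat, 44.9 CPM with ipatasertib and 14.2 CPM with the combination, against 109 CPM with DMSO. It changed by -1.24, -1.28 and -2.94 on the log2 scale in that order (adjusted p = 4e-11, 2.83e-11 and 1.08e-16). FXYD3, a regulator of the sodium pump, averaged 80.4 CPM with tazemetostat, 71.2 CPM with ipatasertib and 149 CPM with the combination, against 44.7 CPM with DMSO (adjusted p = 2.65e-08, 4.19e-07 and 1.32e-13).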
